A study of Mus musculus with 19 samples.

Results

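The complement genes *C2*, *C4b*, *C3*, *Cfb*, *Cfd*, *Cd55*, *Cd59a* and *Serping1* were followed in the cornea and the conjunctiva of mice with free access to food (AL, ad libitum) and mice under calorie restriction (CR). They were taken from the deposited tables by symbol, and all 8 were found among the 24552 genes that each tissue's table holds under a single symbol. RNA sequencing values came from 19 libraries of C57BL/6 mice (C57BL/6 J females by the study's methods): 5 AL and 5 CR cornea libraries (AL numbers 1 to 5; CR numbers 1, 2, 3, 4 and 7) and 4 AL and 5 CR conjunctiva libraries (AL numbers 1, 3, 4 and 5; CR numbers 1 to 5). The methods describe CR as a reduced ration given once a day shortly before the lights went off, in a stepwise restriction lasting months. The series' design text calls the mice young, and the paper calls its CR mice adult, middle-aged and also young. By the paper, tissue was collected after 4 months of diet, so the mice were by then older than at its start. The methods describe 2 cohorts, in one of which the CR chow was enriched in vitamins, and do not say which of them gave these libraries. The feeding schedule follows the account of the cohort with the enriched chow. For the other they say only that CR was set up gradually. All sample titles carry 6M, the methods' form for an age in months and near the age at which they start the diet, and 50W, which the sources used here do not explain. No engineered allele or drug is named for any group. By the study's methods the cornea samples were epithelium scraped from the eye and the conjunctiva samples were excised tissue, so the conjunctiva libraries also hold stroma. Cages are not given per library, and nothing in the labels says whether a number stands for the same mouse in both tissues. The p-values below therefore measure the spread between these libraries.

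Complement is a cascade of serum and tissue proteins that tags microbes and debris and recruits white blood cells. The classical and lectin routes join C4 and C2 into an enzyme that splits C3, the central component, and the alternative route builds a second such enzyme from C3 and factor B (*Cfb*), which factor D (*Cfd*, also called adipsin) cleaves. Host cells hold the cascade back with CD55, which breaks up both enzymes, with CD59, which stops the membrane pore from forming, and with the secreted C1 inhibitor (*Serping1*), which blocks the starting proteases. Most complement protein in blood comes from the liver, and fibroblasts, macrophages and epithelia also make components locally.

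*C4b*, *Cfb* and *C2* sit together on chromosome 17 in the class III part of the mouse MHC. On RefSeq's GRCm38.p6, *C4b* lies at chr17:34728139-34743902, *Cfb* at chr17:34856374-34862514 and *C2* at chr17:34862602-34882100, with 87 bases between the end of *Cfb* and the start of *C2* and 153.96 kb from the first base of *C4b* to the last of *C2*. *C3* is on the same chromosome outside that cluster, at chr17:57203967-57228136. *Cfd* is at chr10:79890853-79892655, *Cd55* at chr1:130429798-130465009, where the antisense gene *Cd55os* overlaps it, *Cd59a* at chr2:104095753-104115410 and *Serping1* at chr2:84765360-84775444. The RefSeq promoter table held 4 of the 8 (*C3*, *Cfd*, *Cd55* and *Cd59a*). The 250 bases before the start of *C3*, the member with the smallest p, and of *Cfd*, the member with the widest spread, are printed 5′ to 3′ on the gene's own strand, with matches to the motifs searched in capitals.
C3, chr17:57228137-57228386, GRCm38.p6, minus strand: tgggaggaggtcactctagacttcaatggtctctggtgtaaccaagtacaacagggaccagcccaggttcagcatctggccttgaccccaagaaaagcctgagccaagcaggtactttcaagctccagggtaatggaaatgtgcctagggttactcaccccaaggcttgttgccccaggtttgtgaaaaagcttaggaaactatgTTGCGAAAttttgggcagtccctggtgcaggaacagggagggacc
Cfd, chr10:79890603-79890852, GRCm38.p6, plus strand: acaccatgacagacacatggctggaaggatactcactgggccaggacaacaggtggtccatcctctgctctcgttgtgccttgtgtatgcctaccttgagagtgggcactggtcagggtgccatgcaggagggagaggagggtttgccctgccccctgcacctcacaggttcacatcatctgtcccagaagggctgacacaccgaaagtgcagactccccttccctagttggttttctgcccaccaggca
Both strands of each 250-base window were searched for the TATA box TATAAA, for the E-box that clock factors bind, CACGTG, for the C/EBP motif TTGCNNAA, for the STAT motif TTCNNNGAA and for the interferon response element and the NF-kB consensus. The matches found do not overlap one another. *C3* held 1 match, TTGCGAAA, 45 to 38 bases before the start (written as −45 and −38). The C/EBP letters occur in 9.56% of the 32851 promoters of that length. The *Cd59a* window held 1 match to the interferon element, which 2.98% of promoters hold, and the *Cfd* and *Cd55* windows held none of these letters. These matches describe the sequence, and no binding was measured.

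Cornea libraries held 10354125 to 14681223 counted reads and conjunctiva libraries 10726717 to 14433441. Values are normalized counts (reads divided by the authors' size factor, separately in each tissue) unless RPM are named, which are reads scaled to 1000000 counted reads in a library. The most that a count of 0 allows, 3 reads, equals between 0.204 and 0.290 RPM. The corneal keratin gene *Krt12* averaged 26420 RPM in AL cornea and 256 in AL conjunctiva, and *Krt4*, a keratin gene of conjunctival epithelium, 291 and 1223. *Krt13* did not tell the tissues apart (2348 and 1852 RPM). Over all genes tested the log2 change had a median of −0.03 (cornea) and −0.02 (conjunctiva).

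All 8 genes had higher RPM in every AL conjunctiva library than in any AL cornea library, and *Cfd* had reads in the conjunctiva alone. *Serping1* averaged 461 ± 95.9 RPM (SD, n = 4) in AL conjunctiva and 13.9 ± 7.08 (n = 5) in AL cornea, and *C3* averaged 141 ± 18.7 and 4.66 ± 1.74. *Cfb* averaged 31.4 ± 5.39 and 0.698 ± 0.233, *C4b* 23.05 ± 2.61 and 0.476 ± 0.597, and *C2* 17.5 ± 4.90 and 1.01 ± 1.55. The membrane regulators differed less between tissues, at 21.5 ± 5.66 and 3.81 ± 2.77 for *Cd55* and 25.7 ± 7.36 and 9.64 ± 2.36 for *Cd59a*. Conjunctiva over cornea, the AL means stood at ratios of 33.2 (*Serping1*), 30.4 (*C3*), 5.63 (*Cd55*) and 2.67 (*Cd59a*), the first pair closer than the spread of their libraries can separate. No ratio is given for *C2*, *C4b* and *Cfb*, whose cornea means rest on few reads. The mean of *C2* there is set by AL 3, at 3.77 RPM beside 0.0934 to 0.467 in the other AL libraries. Under CR the same genes were again higher in every conjunctiva library, except *Cd55*, whose CR ranges overlapped (10.7 to 26.0 RPM in the conjunctiva and 3.29 to 17.2 in the cornea). The tables were normalized separately, so no test was run between tissues, and tissue and dissection cannot be told apart.

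**Figure D1:**
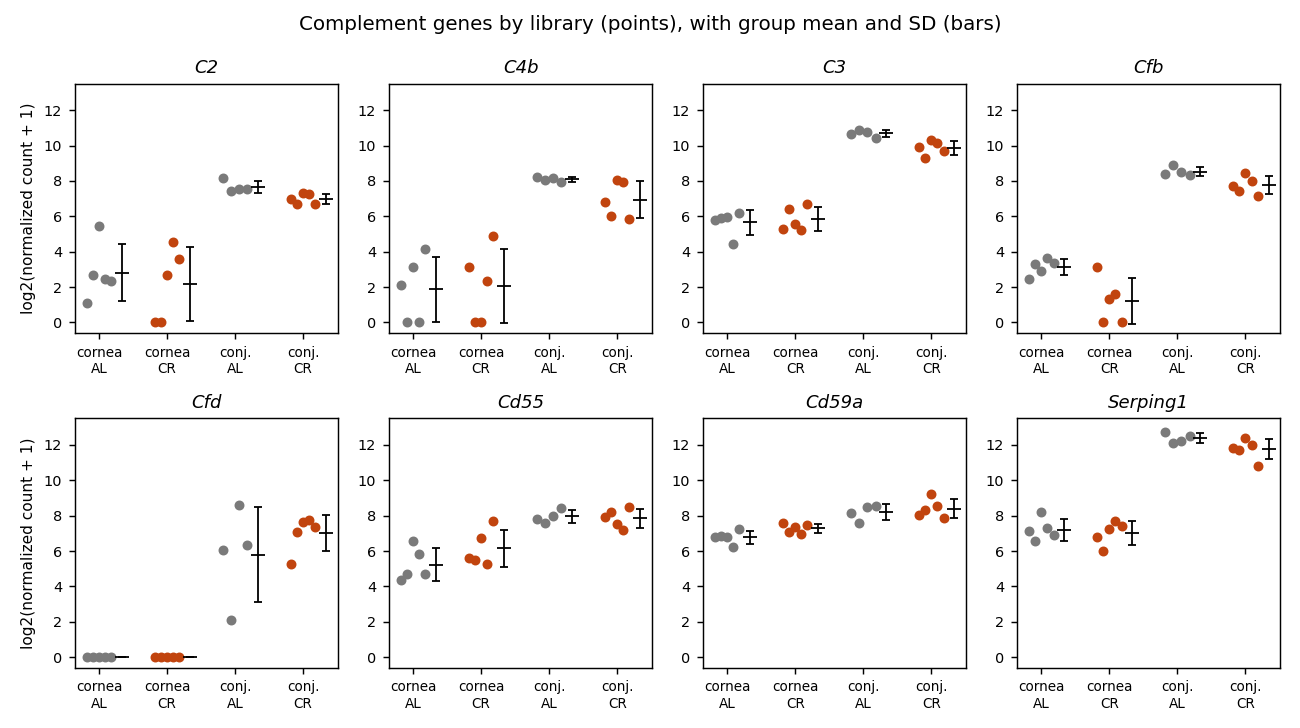
Values of the 8 complement genes in each of the 19 libraries, as log2(normalized count + 1), with 1 panel per gene, AL libraries in grey and CR libraries in orange, and the group mean with its SD beside the points. Within a diet all conjunctiva points lie above the cornea points except for Cd55 under CR, Cfd is at 0 in all 10 cornea libraries, and the C2 and C3 points of the conjunctiva do not overlap between diets.

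The comparison of diets in the conjunctiva asked which of these genes CR changed there. All 8 reached a mean of 10 normalized counts and were tested, and 0 of 8 were called by limma at an adjusted p under 0.05 with a fold over 1.5, beside 50 of all 13929 genes (0.359%). Before adjustment, 5 of the 8 (*C2*, *C3*, *C4b*, *Cfb* and *Serping1*) had a p under 0.05, all with lower values under CR, beside 4.87% of all genes tested in that direction. An unadjusted p under 0.05 with higher values under CR was reached by 0 of the 8, beside 4.53% of all genes. All CR libraries lay below all AL libraries for 2 of the 8 (*C2* and *C3*), beside 1.95% of all genes, and above them for 0 of the 8, beside 1.92%. Across the 8 the log2 change had a median of −0.66, with 6 lower and 2 higher, beside 52.0% of all genes that were lower by any size. The 8 genes were chosen with earlier results of these data known, so these counts describe them and are no independent support.

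*C3*, the component on which all routes of complement converge, came closest to a call. Its AL libraries held 1613, 1914, 1773 and 1387 normalized counts (numbers 1, 3, 4 and 5) and its CR libraries 949, 626, 1259, 1128 and 819 (numbers 1 to 5). The highest CR library, CR 3, was below the lowest AL library, AL 5. The means were 1672 ± 226 (SD, n = 4) under AL and 956 ± 249 (n = 5) under CR, and the log2 change was −0.84 ± 0.19 (SE, limma adjusted p = 0.0714), with a 95% interval of −1.23 to −0.44. The estimate was negative in all 21 alternative ways of processing, between −0.95 and −0.53. Its adjusted p fell below the threshold in 3 of them, at 0.0154 with array weights, 0.0458 with quantile normalization and 0.0147 without CR 3, and otherwise ran up to 0.838.

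**Figure D2:**
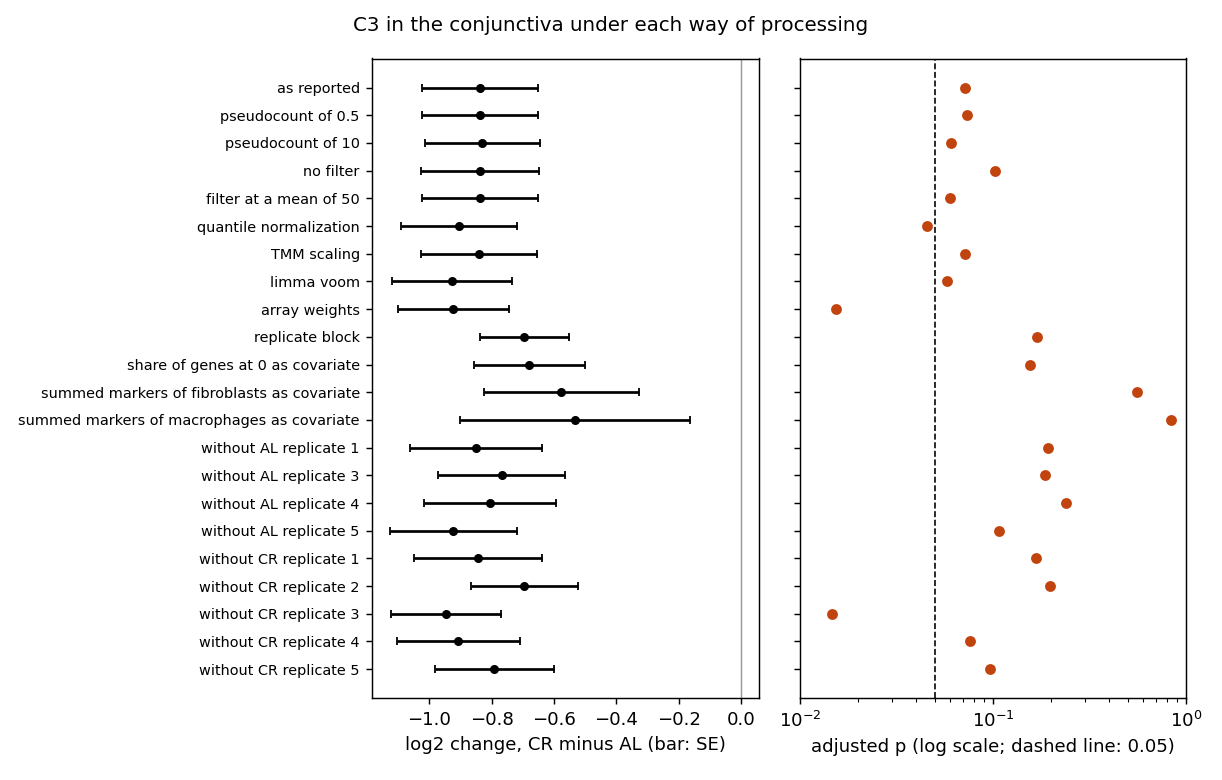
Log2 change of C3 in the conjunctiva with its SE (left) and its limma adjusted p on a log axis (right) as reported and under 21 alternatives. All estimates lie between −0.95 and −0.53, and 3 adjusted p-values (0.0147, 0.0154 and 0.0458) lie left of the dashed line at 0.05.

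*C2*, the protease that joins C4 in the classical enzyme, also did not overlap between diets. It stood at 287, 169, 184 and 183 normalized counts in AL libraries 1, 3, 4 and 5 and at 127, 102, 156, 153 and 101 in CR libraries 1 to 5. AL 1 lay far above the other AL libraries. The log2 change was −0.68 ± 0.23 (SE, limma adjusted p = 0.316, 95% interval −1.17 to −0.18). *Cfb*, the matching protease of the alternative route and the neighbour of *C2* on the chromosome, held 330.4, 471, 361 and 323 under AL and 209, 169, 353, 255 and 142 under CR. Here CR 3 lay among the AL libraries and the other 4 CR libraries below them all. The log2 change of *Cfb* was −0.77 ± 0.24 (SE, limma adjusted p = 0.244), and the adjusted p was 0.0467 without CR 3, the alternative under which 2 of the 8 genes (*C3* and *Cfb*) were called.

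*C4b*, the partner of *C2* in the classical enzyme, had the largest fitted drop of the 8 and an uneven one. AL libraries were close together at 303, 264, 282 and 239.8 normalized counts. CR libraries split, with CR 3 and CR 4 at 266 and 243, inside the AL range, and CR 1, CR 2 and CR 5 at 113, 64.7 and 56.5. The log2 change was −1.15 ± 0.45 (SE, limma adjusted p = 0.436, 95% interval −2.13 to −0.17). Of the 75-base windows of *C4b* transcripts, 22.7% are also found in transcripts of the near copy *C4a* (GENCODE, GRCm38). Reads from those windows may not be assignable to 1 gene, and the sources used here do not say how such reads were counted. *C4a* itself held between 0 and 6.45 normalized counts in the conjunctiva. The 4 other genes tested that lie between *C4b* and *C2* (*Stk19*, *Dxo*, *Skiv2l* and *Nelfe*) had log2 changes of −0.38 to −0.13 with limma adjusted p from 0.674 to 0.908.

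*Cfd*, the protease that activates factor B, varied widely within both diets. It stood at 65.9, 3.37, 391 and 79.9 normalized counts in AL libraries 1, 3, 4 and 5 and at 37.0, 135, 197, 215 and 161 in CR libraries 1 to 5. The CR values lie inside the AL range, which spans both the lowest and the highest library. The log2 change of 1.23 ± 1.26 (SE, limma adjusted p = 0.822, 95% interval −1.72 to 4.17) rests on the 3 reads of AL 3 (0.0065 without that library), and the ratio of the CR to the AL mean was 1.10. *Cfd* is a product of fat cells, and the summed fat cell markers (*Adipoq*, *Plin1*, *Cidec*, *Lep*, *Fabp4*, *Retn*) were 285, 103, 1045 and 332 in the same AL libraries and 282, 684, 1430, 816 and 355 in the CR libraries. AL 3 was lowest and AL 4 highest among AL libraries in both measures, and CR 1 was lowest among CR libraries in both. All 5 fat markers tested had positive log2 changes under CR, with a median of 1.68, and 0 of them were called. Ratios of the CR to the AL mean ran from 1.26 (*Retn*) to 5.61 (*Plin1*), with 1.496 for *Adipoq*, the gene at that median. *Adipoq*, *Plin1*, *Cidec* and *Retn* were at 0 in their lowest AL library, which can widen a log2 change beyond the ratio of the means. The fat cell sums averaged 441 ± 414 (SD, n = 4) under AL and 713 ± 458 (n = 5) under CR, with overlap. The part of fat in the *Cfd* values was not tested.

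Of the 3 inhibitors, *Serping1* had an unadjusted p under 0.05 in the conjunctiva, while *Cd55* and *Cd59a* had intervals around 0. *Serping1*, the inhibitor of the starting proteases, held 6734, 4338, 4830.4 and 5848 normalized counts under AL and 3673, 3412, 5272, 4036 and 1807 under CR. CR 3 lay inside the AL range, the other 4 CR libraries lay below it and CR 5 was lowest by far. The means were 5438 ± 1069 (SD, n = 4) and 3640.2 ± 1248 (n = 5), and the log2 change was −0.64 ± 0.26 (SE, limma adjusted p = 0.454). *Cd55* was at 227, 191, 249 and 349 under AL and at 239, 293, 181, 143 and 352 under CR, with full overlap, and its change on the log2 scale was −0.11 ± 0.26 (SE, limma adjusted p = 0.929, 95% interval −0.65 to 0.44). *Cd59a* was at 285, 189.6, 359 and 379.7 under AL and at 263, 321, 595, 373 and 234 under CR, and its log2 change was 0.20 ± 0.27 (SE, limma adjusted p = 0.864, 95% interval −0.38 to 0.78). Those intervals leave room for a change of about the size seen in *Serping1* for *Cd55* and for a rise for *Cd59a*. The sign of both flipped when single libraries were left out (*Cd55* without AL 5 or CR 4, *Cd59a* without AL 3 or CR 3).

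*Cd55* had its lowest value in CR 4 and its highest in CR 5, and the summed goblet cell markers did too, at 3603 and 9874. Between these the order differed, with CR 1 at 8263 for the goblet cell sum and 239 for *Cd55*, and AL 5 at 6795 and 349. *Cd59a* had its lowest value in AL 3 and its highest in CR 3, where the fat cell sum was also lowest and highest (103 and 1430 normalized counts). The goblet and fat cell lists are among 11 marker lists examined, and their part in these values was not tested. Reads of *Cd55os* on the other strand cannot be set apart from *Cd55*, since the use of strand in counting is not settled. Near copies took few reads, with *Cd55b* at 0 in all 9 conjunctiva libraries and *Cd59b* between 0 and 18.8 normalized counts. Shared 75-base windows made up 5.53% of those of *Cd55* and 1.66% of those of *Cd59a*.

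**Figure D3:**
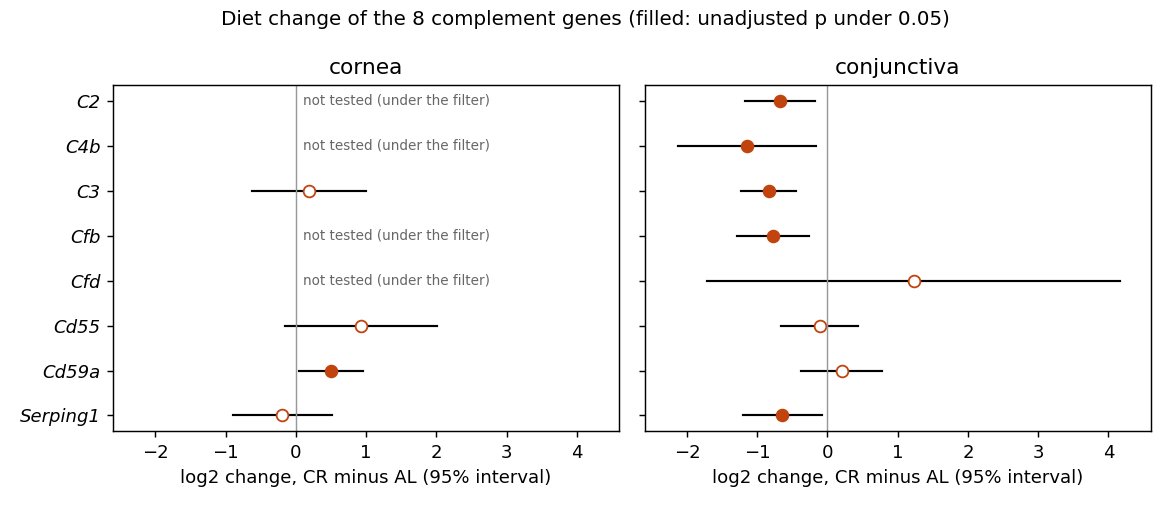
Log2 change (CR minus AL, limma) of the 8 complement genes with its 95% interval in the cornea (left) and the conjunctiva (right). Filled circles mark an unadjusted p under 0.05, which 5 genes reached in the conjunctiva, all lower under CR, and Cd59a reached in the cornea; none passed after adjustment, and 4 genes were under the filter in the cornea.

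Markers of fibroblasts, macrophages and MHC class II presenting cells were lower in mean under CR in the conjunctiva as well, while 3 of 4 neutrophil markers tested and all 5 fat cell markers tested were higher in fitted value. All 12 fibroblast markers had negative log2 changes, with a median of −0.70, and 2 of 12 were called. Those called were the collagen genes *Col1a1* and *Col3a1* (log2 changes −1.37 and −1.57, limma adjusted p = 0.00592 and 0.00337). *Dcn*, at 1822 RPM on average in AL conjunctiva, had a change of −0.17 ± 0.21 (SE, limma adjusted p = 0.850). The summed level of the 12 markers was 50804 to 73394 normalized counts in AL libraries and 30793 to 60603 in CR libraries. CR 3 and CR 4, where *C4b* was inside the AL range, had fibroblast sums of 54235 and 60603, and CR 1, CR 2 and CR 5 had 36648, 37309 and 30793. That split was not particular to fibroblasts. Macrophage sums were 2672 and 2598 in CR 3 and CR 4 and 1912, 2283 and 2039 in CR 1, CR 2 and CR 5. The endothelial and MHC class II sums were also highest in CR 3 and CR 4 among CR libraries. The part of these lists in the *C4b* values was not tested. All 10 macrophage markers were negative too (median −0.63, 0 of 10 called), and their sum did not overlap between diets (2982 to 3557 under AL and 1912 to 2672 under CR). The 5 markers of MHC class II presenting cells were negative with a median of −0.77, and 1 was called. The lacrimal gland sum did not overlap either (40.2 to 198 under AL and 6.65 to 17.4 under CR), and its part in these values was not tested. In whole tissue, fewer cells of a type and less RNA per cell cannot be told apart.

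CR 5 stood apart in its tissue make-up. Its meibomian gland sum was 11207 normalized counts, beside at most 2460.5 in the other libraries, and its fibroblast and endothelial sums (30793 and 560) were the lowest of the 9. *C2*, *C4b*, *Cfb* and *Serping1* all had their lowest value in CR 5, and *C3* had its lowest in CR 2. Without CR 5 the log2 changes were −0.79 ± 0.19 (SE) for *C3*, −0.60 ± 0.24 for *C2*, −0.62 ± 0.22 for *Cfb*, −0.87 ± 0.39 for *C4b* and −0.41 ± 0.17 for *Serping1* (limma adjusted p from 0.0970 to 0.505).

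Set against the fibroblast sum, the diets overlapped for all 5 genes. This sum includes the collagen genes called above, so it is not a measure of fibroblast number alone. Per 1000 normalized counts of fibroblast markers, *C3* stood at 18.9 to 37.7 under AL and 16.8 to 26.6 under CR, *C2* at 2.49 to 3.91 and 2.52 to 3.46, *Cfb* at 4.41 to 9.28 and 4.21 to 6.52, and *C4b* at 3.27 to 5.19 and 1.73 to 4.90. *Serping1* averaged 82.0 ± 8.70 (SD, n = 4) under AL and 82.8 ± 18.9 (n = 5) under CR on that scale. With the log2 fibroblast sum as a covariate, an alternative chosen after the data were seen, the log2 changes were 0.01 ± 0.38 (SE) for *C4b*, 0.03 ± 0.25 for *Serping1*, −0.25 ± 0.30 for *C2*, −0.39 ± 0.32 for *Cfb* and −0.58 ± 0.25 for *C3* (limma adjusted p from 0.559 to 0.997). With the macrophage sum instead they were 0.44 ± 0.67, 0.25 ± 0.42, −0.22 ± 0.46, −0.17 ± 0.46 and −0.53 ± 0.37 in the same order of genes (limma adjusted p from 0.838 to 0.983). Both covariates are themselves lower under CR, so these fits share the diet effect between the terms.

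**Figure D4:**
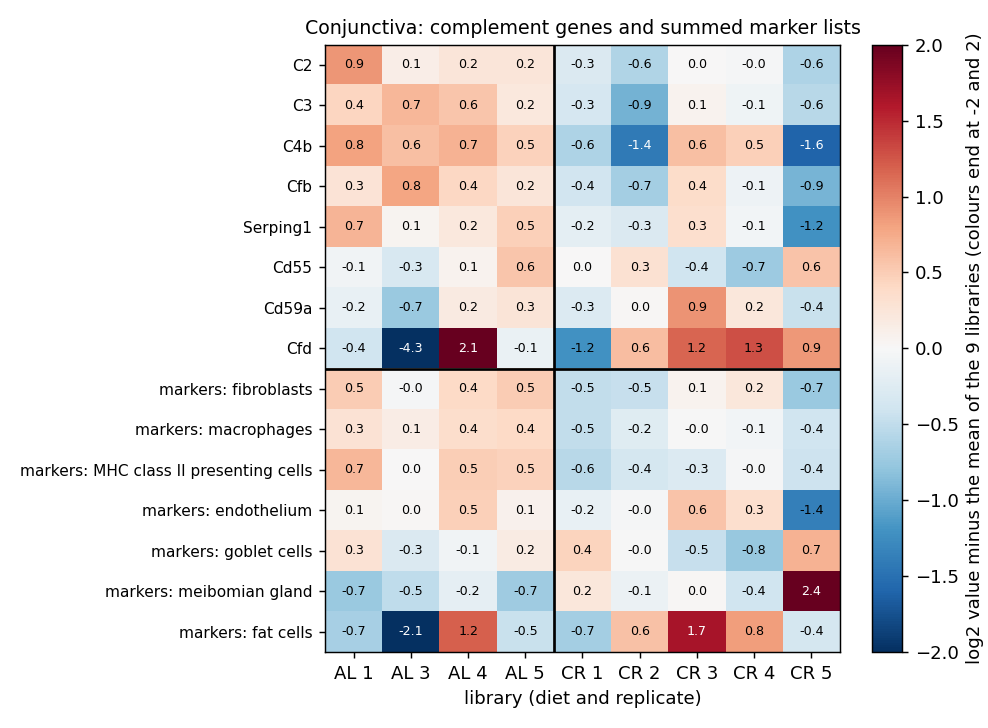
Each of the 9 conjunctiva libraries (columns) with the log2 value of each complement gene and of each summed marker list (rows), minus the row's mean over the libraries; colours end at −2 and 2. The 5 genes in the top rows are above their mean in all 4 AL libraries and lowest in CR 2 or CR 5, and Cfd and the fat cell markers are both lowest in AL 3.

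Genes whose values ran most like those of a member across the 9 conjunctiva libraries were searched among the 9649 genes whose mean reached 100 normalized counts. For *C3* they were *Fes*, *Dpysl3* and *Zfp276* (Pearson r of 0.973, 0.960 and 0.949), for *C4b* they were *Slc39a3*, *Serpinf1* and *C1s1* (0.959, 0.958 and 0.955), and for *Serping1* they were *Tnfsf12*, *Olfml2b* and *Fkbp1a* (0.979, 0.978 and 0.972). *C1s1*, which encodes a starting protease of the classical route that C1 inhibitor blocks, was the only gene of the other complement lists among these 9. These r values are a description over 9 libraries that share the diet split and their tissue make-up, and the best of so many genes are high in any such search.

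In the cornea, 4 of the 8 genes had enough reads to be tested and 0 of them were called, beside 150 of 12278 genes (1.22%). Of the 4, 1 was lower under CR (beside 53.1% of all genes), 0 were lower with an unadjusted p under 0.05 (beside 9.55%), and the diets overlapped for all 4, while 1.89% of all genes lay wholly lower and 2.08% wholly higher under CR. *C3* stood at 55.0, 59.0, 62.2, 20.3 and 73.1 normalized counts in AL libraries 1 to 5 and at 38.3, 84.8, 47.0, 36.8 and 104 in CR libraries 1, 2, 3, 4 and 7, and its change was 0.19 ± 0.39 on the log2 scale (SE, limma adjusted p = 0.832, 95% interval −0.63 to 0.9996). *Serping1* was at 138, 92.9, 294, 158 and 117 under AL and at 109.5, 62.2, 149, 204 and 172 under CR, and its change was −0.19 ± 0.33 on the log2 scale (SE, limma adjusted p = 0.798, 95% interval −0.90 to 0.52). The diets overlapped for both, and the sign of both changed with single libraries, for *C3* without AL 4 or CR 7 and for *Serping1* without AL 3 or CR 2.

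The membrane regulators were both higher in mean under CR in the cornea. *Cd59a* was at 110.0, 113, 110.2, 74.3 and 151 under AL and at 192, 134, 162, 123 and 175 under CR. CR values lay mostly above the AL values, with overlap through AL 5. The log2 change of *Cd59a* was 0.50 ± 0.22 (SE, limma adjusted p = 0.233, unadjusted 0.0324), beside 8.52% of all genes tested that were higher with an unadjusted p under 0.05. *Cd55* was at 19.8, 25.1, 92.8, 56.6 and 24.7 under AL and at 47.1, 43.3, 108, 37.8 and 206 under CR, and its change was 0.92 ± 0.51 on the log2 scale (SE, limma adjusted p = 0.350). The 3 lowest AL libraries were below every CR library, and AL 3 and AL 4 were inside the CR range. The size of the *Cd55* change varied with the processing. It was 0.54 without CR 7, and ran from 0.26 with each library's percent of genes at 0 as covariate to 1.25 without AL 3.

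*C2*, *C4b*, *Cfb* and *Cfd* had means under 10 normalized counts over the 10 cornea libraries. *C2* ran from 1.10 to 42.6 normalized counts under AL, the top value in AL 3, and from 0 to 22.5 under CR, with 0 reads in 2 libraries. *C4b* ran from 0 to 16.5 and from 0 to 28.8, with 2 libraries of each diet at 0. *Cfb* ran from 4.40 to 11.5 under AL and from 0 to 7.67 under CR, where CR 1 was inside the AL range and the other 4 CR libraries were below it, on 13 reads at most in any library. *Cfd* had 0 reads in all 10 libraries, which allows up to 0.290 RPM in the shallowest. Fold changes of these 4 genes were not read at this depth. The fibroblast sum of the cornea ran from 1155 to 2454 normalized counts under AL and from 778 to 2709 under CR, and the fat cell sum from 0 to 14.1 over both diets.

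Whether the diet change differed between tissues was tested for the 4 genes with values in both, as the log2 change in the conjunctiva minus that in the cornea. The difference was −1.02 ± 0.43 (SE) for *C3* (limma fits, adjusted p = 0.620, unadjusted 0.0247), −1.03 ± 0.57 for *Cd55* (adjusted p = 0.707), −0.45 ± 0.42 for *Serping1* (adjusted p = 0.834) and −0.30 ± 0.35 for *Cd59a* (adjusted p = 0.871). All 4 missed the threshold, which 2 of 11929 genes passed (0.0168%). An unadjusted p under 0.05 was reached by 7.48% of genes. This test treats the tissues as independent, although the methods state that several tissues were taken from each mouse. With libraries of the same number paired across tissues (replicate block), which the labels do not give as the same mouse, the difference for *C3* was −0.82 ± 0.58 (SE, limma adjusted p = 0.926, unadjusted 0.193).

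The rest of the pathway was read from 51 other complement genes in 5 lists, also chosen with earlier results of these data known. In the conjunctiva 25 had enough reads, 20 of them with negative log2 changes (beside 52.0% of all genes) and a median of −0.48. An unadjusted p under 0.05 was reached by 6 of the 25, all lower under CR (beside 4.87%), and 0 were called by limma (beside 0.359%). The lists for the classical and lectin start (7 of 7) and for receptors (8 of 8) had negative changes throughout, the alternative pathway gene *Cfp* and the 2 terminal genes tested (*C6* and *Hc*) were negative as well, and 5 of 7 regulators were positive. The regulators had a median of 0.08, and 0 of them had an unadjusted p under 0.05. In the cornea 5 of the 7 regulators tested there were negative (median −0.60).

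*C1qa*, a chain of the C1q that senses antibody and is made by macrophages, ran from 893 to 1154 normalized counts in AL conjunctiva and from 544 to 800.2 under CR, with no overlap (change on the log2 scale −0.63 ± 0.15, SE, limma adjusted p = 0.103). *C1qb*, another chain, had a change of −0.49 ± 0.19 (adjusted p = 0.395), and *C1s1* of −0.83 ± 0.24 (adjusted p = 0.212). *Cfp*, which encodes properdin, the stabilizer of the alternative enzyme, was at 149 ± 27.1 (SD, n = 4) under AL and 79.9 ± 44.2 (n = 5) under CR (−1.06 ± 0.36, limma adjusted p = 0.304). *Itgb2*, the shared chain of the leukocyte receptors for C3 fragments, had a change of −0.75 ± 0.31 (adjusted p = 0.447). *C6*, a pore component, was at 35.1 ± 20.9 and 8.98 ± 5.79 (−1.90 ± 0.77, limma adjusted p = 0.427). Among regulators, *Clu*, which keeps the pore from inserting, had a change of 0.24 ± 0.19 (adjusted p = 0.754), and *Cr1l*, which encodes the rodent regulator Crry, of 0.08 ± 0.16 (adjusted p = 0.916).

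In the cornea 17 of the 51 were tested, 14 of them with negative changes (beside 53.1% of all genes) and a median of −0.99. An unadjusted p under 0.05 was reached by 3 of the 17, all lower (beside 9.55%), and 1 was called (beside 1.22%). The gene called was *C1qa*, which fell from 61.1 ± 15.5 normalized counts under AL to 20.5 ± 8.32 under CR (SD, n = 5 each), with AL libraries from 42.2 to 80.8 and CR libraries from 11.1 to 31.7. Its log2 change was −1.58 ± 0.39 (SE, limma adjusted p = 0.0467). The sign held in all 21 alternatives that could test it, and the adjusted p was under the threshold in 9 of them, between 0.0223 and 0.193 over all. It rose above the threshold without AL 1, AL 2, AL 3, AL 5, CR 2, CR 3 or CR 7 (0.0598 to 0.138), without the filter (0.0699), with quantile normalization (0.0773), with voom (0.0809), with the replicate block (0.185) and with each library's percent of genes at 0 as covariate (0.193). The other chains of the same protein had changes of −0.24 ± 0.51 (*C1qb*, SE, limma adjusted p = 0.836) and −0.34 ± 0.67 (*C1qc*, adjusted p = 0.821), with 95% intervals of −1.32 to 0.84 and −1.74 to 1.06. The macrophage marker sum of the cornea overlapped between diets (1311 to 1766 under AL and 1150 to 1950 under CR, in normalized counts), and 4 of its 10 markers were tested.

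The genes *C1ra* and *Csmd2* also had an unadjusted p under 0.05 in the cornea. *C1ra*, a starting protease, averaged 30.4 ± 9.69 normalized counts under AL and 10.9 ± 10.03 under CR (−2.05 ± 0.80 on the log2 scale, limma adjusted p = 0.194), and *Csmd2*, a gene with complement control domains, 67.3 ± 43.8 and 19.1 ± 41.96 (−3.79 ± 1.32, limma adjusted p = 0.160), with 3 of 5 CR libraries at 0 and 1 at 94.2. The regulator *Clu* had higher RPM in every AL cornea library than in any AL conjunctiva library, at means of 244 and 113, and *Cr1l* was at 46.3 and 64.9 with overlap. In the cornea both overlapped between diets (log2 changes −0.24 ± 0.14 for *Clu* and 0.13 ± 0.13 for *Cr1l*, limma adjusted p = 0.372 and 0.619).

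**Figure D5:**
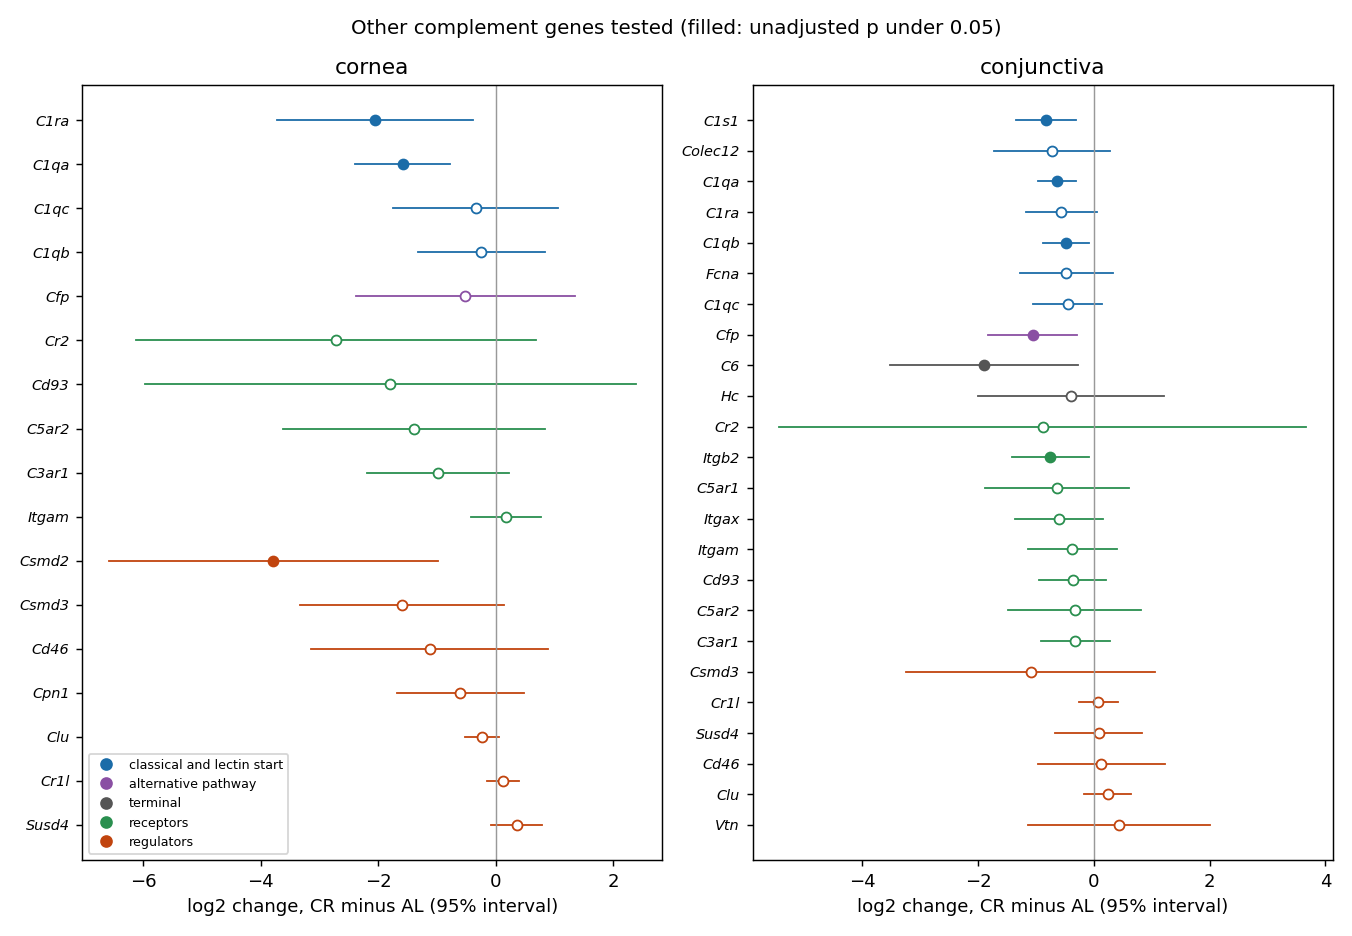
Log2 change (CR minus AL, limma) with its 95% interval for other complement genes tested, all 17 in the cornea (left) and 24 of the 25 in the conjunctiva (right), grouped by colour into the 5 lists; filled circles mark an unadjusted p under 0.05. In the conjunctiva 19 of the 24 drawn lie left of 0 with 6 filled, and in the cornea 14 of the 17 with 3 filled, of which C1qa (−1.58) was called.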

How the data were processed

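RNA was measured in 10 cornea and 9 conjunctiva libraries, grouped by their labels. By the study's methods, the authors trimmed single reads with cutadapt, aligned them with STAR to mm10, counted them per gene with HTSeq and took size factors from DESeq2; the submitters' processing notes name DESeq2 and GRCm39, so the build is not settled, and positions are given on RefSeq's GRCm38.p6. The labels name a stranded mRNA kit and the methods an oligo(dT)-primed kit, so neither strand use nor how counts scale with gene length is known, and levels of different genes were not compared. Tool versions are not given in the sources used here. The deposited values are log2 of the count over the size factor plus 1, per tissue. They were turned back into normalized counts and whole reads (100% of values whole within 0.01). Of 24557 features, 5 with a repeated symbol were left out. The limits given for a count of 0 hold counting error alone.

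Diets were compared per tissue with limma 3.58.1 (R 4.3.3; trend and robust moderation, statmod 1.5.0) on log2(normalized count + 1) over genes whose mean reached 10 normalized counts, with Benjamini-Hochberg adjustment over all of them; no negative binomial model was fitted, and the recovered reads entered limma's voom as an alternative. On that scale the added 1 shrinks the change of genes with few reads, while libraries near 0 can widen it beyond the ratio of the means. For *Csmd2* in the cornea the log2 change was −3.79, and the ratio of the CR to the AL mean was 0.284. The difference between tissues was taken from both fits with Satterthwaite degrees of freedom. The procedure was run on simulated counts with the same spread setting for every gene and no shared tissue make-up. That setting is simpler than these data, so the run says nothing about libraries that stand apart. The members were chosen with earlier results of these data known, and so were the lists. Named were all members, other complement genes called or with an unadjusted p under 0.05 (up to 12), the 3 genes most like a member, and a few regulators chosen after their values were seen. The fits were repeated with a pseudocount of 0.5 or 10, with the filter dropped or raised to 50, with quantile or trimmed-mean (TMM) scaling, with voom on the recovered reads, with array weights, with a block for the replicate number, with each library's share of genes at 0 as covariate, at other thresholds and without each library. Fits with the fibroblast or macrophage marker sum as covariate were chosen after the data were seen. Of the complement lists, 1 gene enters the counts and is not reported by itself here. The 11 marker lists are given as counts and sums, without a test.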

Additional observations from a re-analysis of the deposited data

Results flagged for a closer look

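A library stood apart from the others of its group in 3 of the 24 groups checked (the 8 genes tested in the conjunctiva and the 4 tested in the cornea, by diet), by the ratio of its gap to the group's range. Chance flags about 1 in 20 groups. *C3* in the cornea was low in AL 4, at 20.3 normalized counts beside 55.0 to 73.1 in the other AL libraries. *C2* in the conjunctiva was high in AL 1, at 287 beside 169 to 184. *Cfd* in the conjunctiva was low in CR 1, at 37.0 beside 135 to 215.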

How the results depend on the processing

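Of the 8 genes, *C2*, *C3*, *Cfb* and *Cfd* in the conjunctiva and *Cd55* and *Cd59a* in the cornea kept their direction in all alternatives run. In the conjunctiva 1 member (*C3*) was called with quantile normalization, with array weights and at an adjusted p under 0.10, and between 0 and 2 when single libraries were left out (2 without CR 3). The median change of the members was −0.117 with the fibroblast sum and 0.0411 with the macrophage sum as a covariate, where *C4b* turned to 0.0133 and 0.436 and *Serping1* to 0.0263 and 0.252. Genes called in the conjunctiva numbered 149 with array weights, 10 with the replicate block, 6 and 1 with the fibroblast and macrophage sums, and 26 to 127 without single libraries. In the cornea they numbered 705 with array weights, 46 with the replicate block, 62 with the share of genes at 0, and 53 to 536 without single libraries. Signs turned for *C3* in the cornea with array weights (−0.0829) and without AL 4 or CR 7 (range without single libraries −0.125 to 0.340), for *Serping1* in the cornea without AL 3 or CR 2 (−0.357 to 0.0692), and in the conjunctiva for *Cd59a* without AL 3 or CR 3 (−0.0063 to 0.334) and for *Cd55* without AL 5 or CR 4 (−0.261 to 0.0617). The cause was not tested. The same number does not pair the diets (deviations correlated at −0.30 to 0.29 in the cornea, in the conjunctiva at −0.06 to 0.05), and under the block 0 members were called in either tissue. Taken per number shared by both tissues (replicate block), the difference between tissues passed for 0 genes in place of 2 and turned for *Serping1* to 0.0518. The filter at 50 left *C1qa* out of the cornea test. Depth limits *C2*, *C4b*, *Cfb* and *Cfd* in the cornea, at 42.6 normalized counts or fewer.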

Other observations

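Marker lists not yet described were as follows. In the conjunctiva all 6 meibomian gland markers had positive log2 changes under CR (median 1.91, 0 called), with sums of 1264 to 1858 normalized counts under AL and 1598 to 11207 under CR, the top value in CR 5, where *C2*, *C4b*, *Cfb* and *Serping1* were lowest. The 6 endothelial markers were all negative (median −0.27, 0 called), the 2 lacrimal gland markers tested were negative (median −4.58), and of 4 neutrophil markers tested 3 were positive (median 1.24). The 6 markers of corneal and the 6 of conjunctival epithelium had medians of 0.13 and 0.05, and the 4 goblet cell markers tested of 0.02. In the cornea the lacrimal gland markers were negative in 9 of 9 (median −3.64, 1 called), with sums of 124 to 50677 under AL and 48.3 to 400.03 under CR. The top sum was that of AL 1 alone, and the other AL cornea libraries held 1012, 1317, 124 and 314 (numbers 2 to 5). Medians there were 0.02 for 11 fibroblast, −0.20 for 4 macrophage, −0.84 for 4 MHC class II, −0.75 for 2 neutrophil, 0.74 for 2 meibomian (1 called), 0.15 for 2 goblet cell, −0.06 for 6 corneal epithelium and 0.03 for 6 conjunctival epithelium markers, and the 1 endothelial marker tested was at 0.71.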
